A study of Mus musculus with 15 samples.

Results

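The miRNAs miR-103-3p and miR-107-3p were followed in the livers of mice on 3 diets. They were chosen by name, as every mature miRNA of the miR-103 and miR-107 genes that the array measured, and they were 2 of the 696 mouse miRNAs on it. The array held no probe named for the other arm of either hairpin. The livers came from 15 male B6C57/J mice, 1 array per mouse and 5 mice per diet, and each diet began at an age of 1 year and was kept for life. SD mice ate the AIN-93G SD diet ad libitum, CR mice were on 40% caloric restriction of that diet, and Met mice ate the AIN-93G diet ad libitum with 0.1% w/w metformin added. All animals were thus of 1 strain, 1 sex and 1 starting age, and the comparisons ask whether the level of the miRNAs in liver differed between diets. The arrays lay on 2 slides, with all SD mice and Met mice 1 to 3 on slide 1 and all CR mice and Met mice 4 and 5 on slide 2. The liver label was checked with miR-122-5p, the miRNA that marks hepatocytes, which was detected on 15 of 15 arrays with a mean z-score of 6.07 ± 0.214 in SD, 6.29 ± 0.0985 in CR and 6.32 ± 0.0549 in Met (SD over mice, n = 5 each).

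Both miRNAs are made from introns of the pantothenate kinase genes, whose enzymes start the synthesis of coenzyme A. A mature miRNA guides Argonaute to messenger RNAs that pair with its seed, the bases near its 5′ end, and lowers their output. In liver and fat, miR-103 and miR-107 are known as negative regulators of insulin sensitivity, in part through caveolin-1, a protein that stabilizes the insulin receptor at the membrane.

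The mature sequences are shown because the pair is nearly identical and because the same bases define the wider miR-15 and miR-107 group, whose members carry AGCAGC starting at base 1 or 2. They are from RefSeq, build GRCm38.p6, with bases 2 to 8, the seed, in capitals. The members share the seed GCAGCAU, which no other matched miRNA of the group has.
mmu-miR-103-3p: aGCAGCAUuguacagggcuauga
mmu-miR-107-3p: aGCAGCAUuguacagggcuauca
Their relatives in the group carry the hexamer 1 base further in.
mmu-miR-15a-5p: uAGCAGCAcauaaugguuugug
mmu-miR-15b-5p: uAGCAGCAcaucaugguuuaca
mmu-miR-16-5p: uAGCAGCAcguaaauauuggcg
mmu-miR-195a-5p: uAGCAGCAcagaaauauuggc
mmu-miR-322-5p: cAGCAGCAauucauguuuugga
mmu-miR-503-5p: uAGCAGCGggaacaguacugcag
Over 23 bases, miR-103-3p and miR-107-3p had 22 in common, with the single substitution G22C from miR-103-3p to miR-107-3p, counted from 1 at the 5′ end. Of the 696 names on the array 542 were matched to a mature sequence, and 8 of these, or 1.48%, held the hexamer at base 1 or 2. Of the 178 miRNAs tested below 134 were matched, so the group may have further members among the unmatched names, such as miR-497-5p. The mature miR-103-3p is encoded at 2 loci, Mir103-1 at chr11:35782447-35782469 on the plus strand, inside Pank3, and Mir103-2 at chr2:131288103-131288125 on the plus strand, inside Pank2. Mir107 gives miR-107-3p from chr19:34820700-34820722 on the minus strand, inside Pank1, all in GRCm38.p6. The array sees only the mature RNA, so the Mir103 loci cannot be told apart, and how far the probes of one member bind the other was not tested.

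Each member was read by 2 probes with 10 spots each. The scanner software called both members detected on 15 of 15 arrays. Of their 600 spots, 599 were well above background, 28 were outliers and were left out, and 0 were saturated. Across the spots of a probe on an array the coefficient of variation lay between 1.62% and 9.49%, with a median of 4.37%, while between mice of a diet the background-subtracted signal of a probe varied by 8.60% to 28.3%. With 1 array per mouse, the spread between mice also holds that of labeling and hybridization.

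Levels are given first as z-scores, the natural log of the median spot signal centered on the mean of every spot on that array and divided by the standard deviation of the spots. For miR-103-3p the z-scores were 0.892, 0.910, 1.09, 0.900 and 1.14 in SD mice 1 to 5, 1.06, 0.924, 0.678, 0.901 and 0.985 in CR mice 1 to 5, and 1.09, 0.984, 1.02, 1.003 and 1.13 in Met mice 1 to 5. SD mice 3 and 5 stood above the other 3 SD mice, CR mouse 3 was the lowest of all 15, and the ranges of the 3 diets overlapped. The group means of miR-103-3p were 1.05 ± 0.0639 in Met, 0.986 ± 0.119 in SD and 0.909 ± 0.142 in CR (SD over mice, n = 5), and no neighbors in this order differed by more than the larger of their standard deviations. For miR-107-3p the z-scores were 1.34, 1.25, 1.56, 1.22 and 1.57 in SD mice, 1.36, 1.13, 0.914, 1.28 and 1.27 in CR mice, and 1.57, 1.36, 1.32, 1.33 and 1.46 in Met mice. SD mice 3 and 5 and CR mouse 3 again marked the extremes, joined at the top by Met mouse 1, and the diets overlapped in this member too. Mean z-scores of miR-107-3p were 1.41 ± 0.106 in Met, 1.39 ± 0.168 in SD and 1.19 ± 0.176 in CR, so Met and SD lay close together and CR was lower by a little more than 1 standard deviation.

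**Figure D1:**
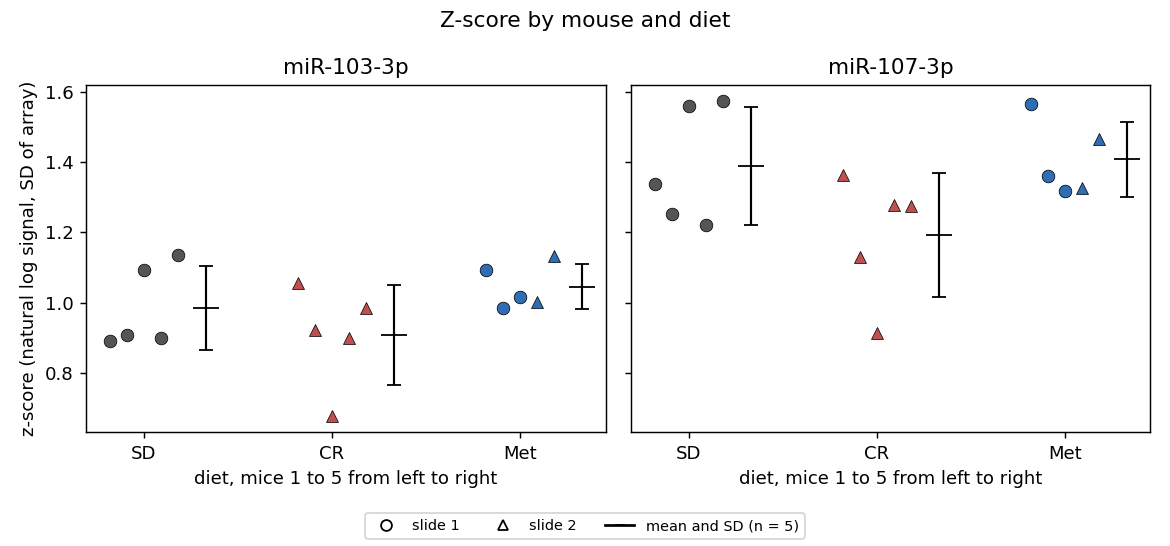
Z-scores of miR-103-3p (left) and miR-107-3p (right) in each mouse, by diet, with mice 1 to 5 from left to right, circles for slide 1 and triangles for slide 2; bars give the mean and SD of 5 mice. CR mouse 3 is lowest for both members, at 0.678 and 0.914, and the diets overlap.

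The software's total gene signal, a background-subtracted sum over the probes of a miRNA on a linear scale, gives the levels before any scaling between arrays. For miR-103-3p it was 225.6, 214.9, 313.2, 222.1 and 304.6 in SD mice, 275.4, 196.6, 128.1, 206.6 and 259.1 in CR mice, and 296.5, 254.8, 262.9, 273.4 and 318.9 in Met mice. The 5 Met mice lay in a narrow band within and just above the upper part of the SD range, whereas CR mice 2, 3 and 4 lay below every SD mouse and the others within the SD range. For miR-107-3p the total gene signal was 382.9, 322.1, 526.0, 329.6 and 487.9 in SD mice, 388.1, 252.2, 176.1, 319.5 and 367.5 in CR mice, and 500.2, 393.6, 372.7, 392.7 and 469.6 in Met mice. CR mice 2, 3 and 4 were below every SD and Met mouse, CR mouse 4 only just, and CR mice 1 and 5 overlapped with SD. The coefficient of variation between mice was smallest in Met for both members, 9.31% for miR-103-3p and 13.1% for miR-107-3p, against 18.9% and 22.7% in SD and 27.3% and 29.0% in CR; a difference in spread was not tested.

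**Figure D2:**
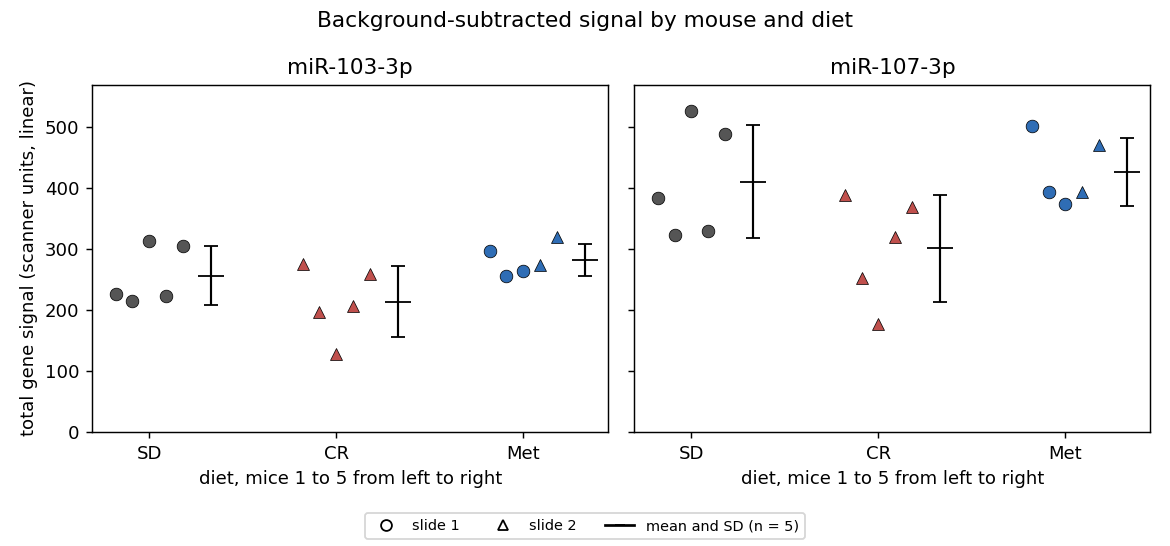
Total gene signal (linear scanner units, background subtracted, not scaled between arrays) of each member in each mouse, by diet, with mean and SD of 5 mice. CR mouse 3 is lowest, at 128.1 for miR-103-3p and 176.1 for miR-107-3p.

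Metformin was compared with the standard diet to ask whether the drug moved either miRNA. With limma, in 1 fit over 178 miRNAs (those that every array of some diet detected), 2 miRNAs (1.12% of those tested) met the criteria between Met and SD, and 0 of the 2 members did. The criteria were p of 0.05 or less, a Benjamini-Hochberg adjusted p of 0.3 or less and a Z ratio of 1.5 or more in size, where the Z ratio is the difference in mean z-score scaled by how widely such differences spread (1 standard deviation) among all 696 miRNAs. With the total gene signal, used as an alternative below, that spread was taken over the 178 tested miRNAs instead. At an unadjusted p of 0.05 or less limma counted 12 miRNAs, with neither member among them. The difference in mean z-score, Met minus SD, was 0.0597 for miR-103-3p (SE 0.0789, 95% interval -0.108 to 0.227; limma, Benjamini-Hochberg adjusted p = 0.930, Z ratio 0.981). For miR-107-3p it was 0.0184 (SE 0.100, 95% interval -0.195 to 0.232; limma, Benjamini-Hochberg adjusted p = 0.930, Z ratio 0.303). The sign for miR-107-3p turned when the 75th percentile over every probe set the scale, with the total gene signal, with centering that leaves out the division and without SD mouse 2, SD mouse 4 or Met mouse 1, while that for miR-103-3p stayed positive in every alternative run. Within slide 1, where SD mice could be set against Met mice 1 to 3, and equally with the slide as a block, the differences were 0.0452 for miR-103-3p and 0.0263 for miR-107-3p (limma with Benjamini-Hochberg adjustment, adjusted p = 0.975 for each on slide 1 and 0.992 for each with the block).

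Caloric restriction was compared with the standard diet in the same fit. CR and SD differed by these criteria in 31 of the 178 tested miRNAs (17.4%), 5 higher and 26 lower in CR, and 0 of the 2 members were among them. The balance turned with scaling, to 110 higher and 10 lower with the 75th percentile of detected probes and 25 higher and 17 lower with quantile normalization. At an unadjusted p of 0.05 or less limma counted 74, with neither member among them. For miR-103-3p the CR minus SD difference was -0.0776 (SE 0.0789, 95% interval -0.245 to 0.0901; limma, Benjamini-Hochberg adjusted p = 0.477, Z ratio -0.466). A larger difference was found for miR-107-3p, -0.197 (SE 0.100, 95% interval -0.410 to 0.0164; limma, Benjamini-Hochberg adjusted p = 0.153, Z ratio -1.18), which missed the limits for p and Z ratio. Ranked from the lowest difference of the 178, miR-107-3p was number 33 and miR-103-3p number 58. Slide and diet cannot be told apart directly in this comparison, because no slide held both groups. With the slide as a block, estimated through the Met mice, the difference was -0.114 (SE 0.144) for miR-103-3p and -0.177 (SE 0.184) for miR-107-3p (limma with Benjamini-Hochberg adjustment, adjusted p = 0.636 and 0.574).

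Between CR and Met, which share no mice, 37 of 178 miRNAs (20.8%) met the criteria, 8 higher and 29 lower in CR, and 0 of the 2 members did. With those other scalings the counts were 101 higher and 15 lower, and 22 higher and 26 lower. Of the 80 that limma counted at an unadjusted p of 0.05 or less, miR-107-3p was one and miR-103-3p was not. The CR minus Met difference was -0.137 for miR-103-3p (SE 0.0789, 95% interval -0.305 to 0.0303; limma, Benjamini-Hochberg adjusted p = 0.172, Z ratio -0.885). For miR-107-3p it was -0.215 (SE 0.100, 95% interval -0.429 to -0.00205; limma, Benjamini-Hochberg adjusted p = 0.107, Z ratio -1.39), which passed the limits on p and adjusted p and fell short of the limit on the Z ratio. Without Met mouse 3 it met all criteria, at a Z ratio of -1.56 (limma, Benjamini-Hochberg adjusted p = 0.119), the only mouse whose removal did so. The limit on p was missed without SD mouse 1 or 2, CR mouse 2 or 3, or Met mouse 1, 2 or 5. The difference for miR-107-3p shrank to -0.146 without CR mouse 3 and to -0.176 without Met mouse 1. With all mice kept, that limit was also missed in some alternatives, among them no filter and a fit of 2 groups. Within slide 2, and equally with the slide as a block, the differences were -0.159 for miR-103-3p and -0.204 for miR-107-3p, with only Met mice 4 and 5 on that slide (limma with Benjamini-Hochberg adjustment, adjusted p = 0.408 and 0.374 on the slide, 0.279 for each with the block). The 3 comparisons share their groups pairwise, so their values for the members are not independent.

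Probe by probe, the members behaved much as their means did. For the brighter probe of miR-103-3p the differences in mean z-score were 0.0768 for Met minus SD, -0.0711 for CR minus SD and -0.148 for CR minus Met, and for its dimmer probe they were 0.0426, -0.0841 and -0.127. The brighter probe of miR-107-3p gave 0.0394, -0.193 and -0.232, and its dimmer probe gave -0.00252, -0.201 and -0.199. Only the sign of miR-107-3p between Met and SD thus differed between the 2 probes of a member, at a difference close to 0.

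The sign of the CR differences depended on how the arrays were scaled. Scaled to the 75th percentile of the probes detected on all arrays, miR-103-3p stood at 0.26 in log2 for CR minus SD and 0.16 for CR minus Met, and miR-107-3p at 0.11 and 0.06. On that scale the median over all tested miRNAs was itself shifted, by 0.37 for CR minus SD and 0.30 for CR minus Met. For miR-103-3p the CR minus SD value passed the limits on p and adjusted p in this positive direction, as no other of these 4 values did, and missed that on the Z ratio, at 1.32 (limma with Benjamini-Hochberg adjustment, adjusted p = 0.0158). Relative to the median, miR-103-3p was at -0.11 and -0.15 and miR-107-3p at -0.26 and -0.25. Using the 75th percentile over every probe leaves these relative values as they are, and there the differences themselves were negative, -0.19 and -0.23 for miR-103-3p and -0.34 and -0.32 for miR-107-3p. On this scale miR-107-3p met the criteria in both comparisons with CR, at Z ratios of -1.69 and -1.83 (limma with Benjamini-Hochberg adjustment, adjusted p = 0.106 and 0.132). Quantile normalization gave positive differences, 0.16 and 0.07 for miR-103-3p and 0.13 and 0.08 for miR-107-3p, also relative to medians of 0.03 and 0.02, and all 4 missed the limit on p. The total gene signal, scaled to its 75th percentile over miRNAs detected on all arrays, gave 0.27 and 0.26 for miR-103-3p and 0.09 and 0.15 for miR-107-3p, beside medians over all tested miRNAs of 0.28 and 0.25. Here miR-103-3p passed the limits on p and adjusted p in both comparisons in the positive direction, and miR-107-3p missed that on p in both, with Z ratios of 0.355 and 0.354 for miR-103-3p (limma with Benjamini-Hochberg adjustment, adjusted p = 0.0352 and 0.0439). Relative to these, miR-103-3p lay within 0.01 of the median and miR-107-3p below it by -0.19 and -0.10. The Z ratios on this signal were scaled by the spread over the 178 tested miRNAs only, 0.763 and 0.727 in log2. They thus do not compare directly with those of the other scalings.

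**Figure D3:**
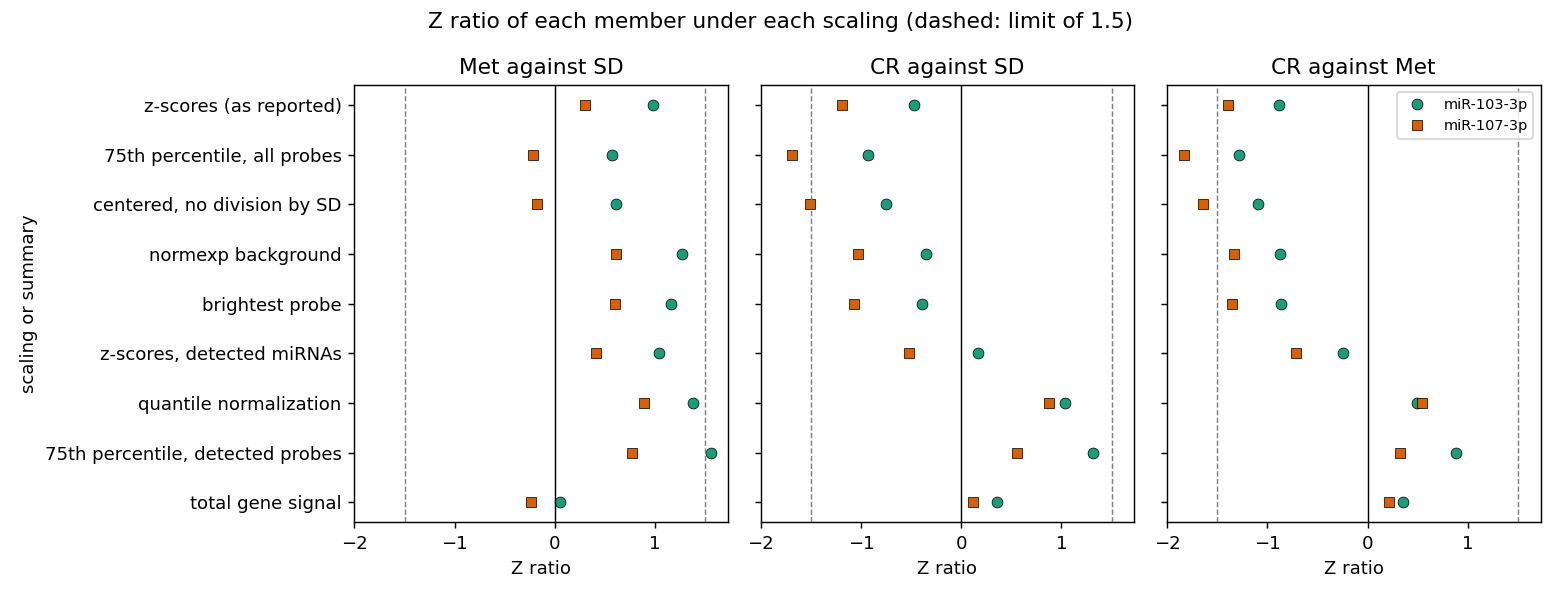
Z ratio of each member in the 3 comparisons under 9 ways to scale or summarize the arrays, with a dashed line at the limit of 1.5 on either side. For the total gene signal the Z ratio is scaled by the spread over the 178 tested miRNAs, for the others over all 696. Between CR and SD the Z ratio of miR-107-3p runs from -1.69 with the 75th percentile over every probe to 0.874 with quantile normalization, so the sign is set by the scaling.

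Left unscaled, the log2 signal of both members was lower in CR than in Met. The mean log2 median spot signal, which still carries the background of the array, was 8.20 ± 0.18 in SD, 8.05 ± 0.22 in CR and 8.31 ± 0.08 in Met for miR-103-3p, and 8.65 ± 0.25, 8.34 ± 0.27 and 8.70 ± 0.12 for miR-107-3p (SD over mice, n = 5). CR minus Met was -0.26 for miR-103-3p and -0.36 for miR-107-3p (two-sided exact permutation test, p = 0.0317 and 0.0238, and 0.0952 for each after Benjamini-Hochberg adjustment over 6 tests). CR minus SD was -0.15 and -0.30 (exact permutation test, adjusted p = 0.333 and 0.254), and Met minus SD was 0.11 and 0.05 (adjusted p = 0.333 and 0.667 in the same exact tests). None of these tests passed the limit of 0.05 after adjustment, where 5 mice against 5 can reach an unadjusted p of 0.00794 at best. Without CR mouse 1, left out after seeing the data, CR minus Met passed for both members, at -0.32 and -0.43 (exact permutation test, adjusted p = 0.0238 for each). Without CR mice 2 and 3, also chosen after seeing the data, it was -0.14 and -0.18 (exact permutation test, adjusted p = 0.375 for each). Without CR mouse 3 alone, CR minus SD was -0.06 and -0.20, closer to 0 than with any other mouse left out. In the background-subtracted total gene signal the CR minus Met differences were -0.44 and -0.55, beside a median of -0.46 over all 178 tested miRNAs. On that signal 90 of the 178 lay lower than miR-103-3p and 79 lower than miR-107-3p, so the members were near the middle of all tested. On the median spot signal the median over all tested was -0.11, with 46 lower than miR-103-3p and 33 lower than miR-107-3p, so how much of the difference was shared depended on the signal used.

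The ratio of the members on the same array shows only whether they changed unequally. A factor common to an array drops out of the ratio of background-subtracted signals. It does not fully drop out of the ratio of median spot signals, where the background that both carry draws the log2 ratio toward 0 on dimmer arrays. The log2 ratio of miR-103-3p over miR-107-3p, from the median spot signal, was -0.49, -0.37, -0.54, -0.34 and -0.48 in SD mice, -0.33, -0.20, -0.22, -0.38 and -0.32 in CR mice, and -0.51, -0.40, -0.32, -0.34 and -0.37 in Met mice. Among CR mice 4 of 5 lay above all SD mice, and CR mouse 4 lay within the SD range. Met mice ran from within the SD range to within the CR range. The mean log2 ratio was -0.44 ± 0.08 in SD, -0.29 ± 0.08 in CR and -0.39 ± 0.07 in Met (SD over mice, n = 5). CR minus SD was 0.15 (two-sided exact permutation test, p = 0.0317, Benjamini-Hochberg adjusted over 3 comparisons p = 0.0952), CR minus Met was 0.10 (exact permutation test, p = 0.0714, adjusted p = 0.107) and Met minus SD was 0.05 (exact permutation test, p = 0.365, adjusted p = 0.365). The test over 3 comparisons thus left no difference in the ratio past the adjusted limit of 0.05.

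On the background-subtracted total gene signal the linear ratio of miR-103-3p to miR-107-3p was 0.589, 0.667, 0.595, 0.674 and 0.624 in SD mice, 0.710, 0.779, 0.727, 0.647 and 0.705 in CR mice, and 0.593, 0.647, 0.705, 0.696 and 0.679 in Met mice. Again 4 of 5 CR mice lay above every SD mouse, and the order CR, Met, SD was kept. On the log2 scale CR minus SD was 0.18 (exact permutation test, p = 0.0238, adjusted p = 0.0714), CR minus Met 0.10 (exact permutation test, adjusted p = 0.214) and Met minus SD 0.08 (exact permutation test, adjusted p = 0.238). With the median spot signal of only the brightest probe of each member, CR minus SD was 0.16 and passed the limit (exact permutation test, p = 0.00794, the smallest possible, adjusted p = 0.0238). In background-subtracted signal, a choice made after seeing the data, the same probes gave 0.17 and did not pass (exact permutation test, adjusted p = 0.0714). When each mouse was left out in turn from the median spot signal, CR minus SD passed only without CR mouse 4, the one CR mouse inside the SD range, at 0.17, as did CR minus Met, at 0.12 (exact permutation test, adjusted p = 0.0357 for each). Without CR mouse 2 or CR mouse 3, CR minus SD was 0.13 (exact permutation test, adjusted p = 0.190 for each), and without SD mouse 1, 3 or 5 it was 0.13 to 0.14 (adjusted p = 0.107 for each in the same exact test). On the total gene signal, left out mouse by mouse after seeing the data, CR minus SD without CR mouse 4 was 0.21 and CR minus Met 0.14 (exact permutation test, adjusted p = 0.0476 and 0.0714). Each of the 4 pairings of a miR-103-3p probe with a miR-107-3p probe, chosen after seeing the data, gave a positive CR minus SD difference in background-subtracted signal, from 0.14 to 0.23, and adjusted p-values in the exact permutation test from 0.0238 to 0.357.

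**Figure D4:**
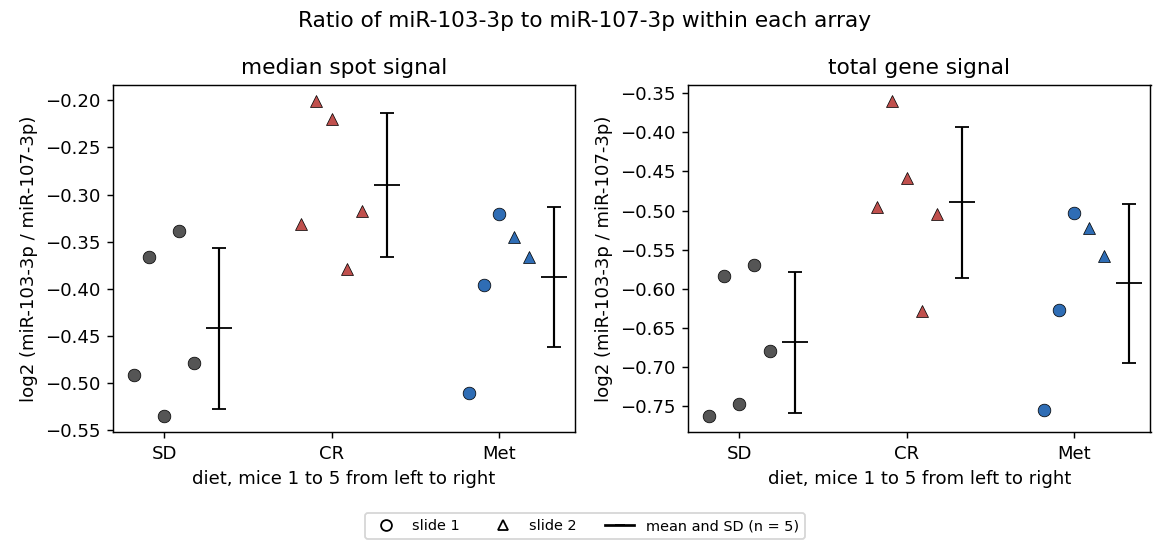
Log2 ratio of miR-103-3p to miR-107-3p in each mouse, from the median spot signal (left) and the total gene signal (right), with circles for slide 1, triangles for slide 2, and mean and SD of 5 mice. CR mice average -0.29 on the left against -0.44 in SD, with CR mouse 4 inside the SD range.

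The ratio was also compared within a slide. Within slide 1 the Met minus SD difference in log2 ratio was 0.03 (exact permutation test over 56 ways, p = 0.696), and within slide 2 the CR minus Met difference was 0.07 (exact permutation test over 21 ways, p = 0.238). These are from the median spot signal. On the total gene signal, a choice made after seeing the data, they were 0.04 and 0.05 (exact permutation test, p = 0.589 and 0.524). CR and SD lay on different slides, so for them slide and diet cannot be told apart. Unscaled differences also varied with signal strength. Over the 139 miRNAs detected on all arrays, split in 3 by mean total gene signal, the median CR minus SD difference was -0.18 in log2 in the dimmest part, -0.25 in the middle part, which held miR-103-3p, and -0.29 in the brightest part, which held miR-107-3p. For CR minus Met the same medians were -0.18, -0.34 and -0.50. The part of slide or signal strength in the ratio was not tested.

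CR mice 2 and 3 stood apart in many miRNAs, and their arrays detected the fewest miRNAs of the 15, 167 and 151 against 170 to 205 on the others. For this reason the members were also compared with both left out, a choice made after seeing the data. The CR minus SD difference in mean z-score was then -0.00582 for miR-103-3p and -0.0838 for miR-107-3p, and CR minus Met was -0.0655 and -0.102 (limma with Benjamini-Hochberg adjustment, adjusted p from 0.534 to 0.947). In the log2 ratio of miR-103-3p over miR-107-3p, CR minus SD was 0.10 and CR minus Met 0.05 without these mice (exact permutation test, adjusted p = 0.321 and 0.411). The number of miRNAs that met the criteria was 22 for CR against SD and 18 for CR against Met, and neither member was included.

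Across the 15 arrays the z-scores of the members followed each other, with a Pearson r of 0.917, the highest of any of 177 tested miRNAs for either one. After the mean of each diet was taken out it was 0.919, below the 0.922 of miR-185-5p with miR-107-3p. Outside the pair, the miRNAs most like miR-103-3p were miR-99a-5p (r = 0.914), miR-361-5p (r = 0.906) and miR-23b-3p (r = 0.892), and those most like miR-107-3p were miR-185-5p (r = 0.906), let-7g-5p (r = 0.898) and miR-152-3p (r = 0.878). The median r over all tested miRNAs was 0.334 for miR-103-3p and 0.294 for miR-107-3p. These values describe arrays that share 3 diets, 2 slides and 1 way of scaling, and they move with the scaling. With the 75th percentile of detected probes the r between the members was 0.796, number 102 in order for miR-103-3p, whose median r was 0.823, and number 2 for miR-107-3p, whose median r was 0.494.

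Of the 8 miRNAs of the miR-15 and miR-107 group among the matched names 6 were tested, because miR-322-5p was detected on 10 arrays and miR-503-5p on 0. The unmatched miR-497-5p, chosen after its values were seen, is not in the counts and did not meet the criteria, at 0.0359 for Met minus SD, -0.0149 for CR minus SD and -0.0509 for CR minus Met (limma with Benjamini-Hochberg adjustment, adjusted p = 0.930, 0.673 and 0.122). Between Met and SD, 0 of the 6 met the criteria and 6 were higher in Met (100 of all 178), with a median difference in mean z-score of 0.0548 beside 0.00838 over all 178. Between CR and SD, 2 of the 6 fell (26 of all 178) and 5 had a negative difference (104 of 178), with a median of -0.143 beside -0.0161 over all. Between CR and Met, the same count fell, 2 of 6 (29 of all 178), and 6 were lower (71 of all 178 were higher), with a median of -0.176 beside -0.0292. The pair that fell in both was miR-15a-5p and miR-16-5p, known as regulators of the cell cycle and of Bcl2. Neither miR-103-3p nor miR-107-3p met the criteria, nor did miR-15b-5p and miR-195a-5p, which have the same seed as that pair. For miR-15a-5p the z-scores were 1.13, 1.28, 1.56, 1.15 and 1.30 in SD mice, 1.13, 0.174, 0.191, 0.810 and 1.18 in CR mice, and 1.34, 1.28, 1.37, 1.39 and 1.49 in Met mice. CR mice 2 and 3 were far below all others, while for miR-103-3p CR mouse 2, at 0.924, lay inside the SD range. For miR-107-3p both of these CR mice, at 1.13 and 0.914, lay below every SD and Met mouse. The CR minus SD difference was -0.585 for miR-15a-5p and -0.437 for miR-16-5p (limma with Benjamini-Hochberg adjustment, adjusted p = 0.0241 and 0.0440), and CR minus Met was -0.676 and -0.487 (adjusted p = 0.0209 and 0.0274 in the same limma fit). With the slide as a block, miR-16-5p did not meet the criteria between CR and SD and miR-15a-5p did, at -0.562 and -0.695 (limma with Benjamini-Hochberg adjustment, adjusted p = 0.257 for each), and both did between CR and Met.

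Without CR mice 2 and 3, miR-15a-5p still met the criteria in both comparisons, at -0.241 and -0.332 (limma with Benjamini-Hochberg adjustment, adjusted p = 0.161 and 0.0998), and miR-16-5p did not, at -0.150 and -0.200 (adjusted p = 0.372 and 0.284). Between CR and the other diets the sign of both stayed negative with each other scaling tried, namely quantile normalization, both 75th percentiles, z-scores taken over detected miRNAs and the total gene signal. Scaled to the 75th percentile of detected probes, however, the CR minus SD differences were -0.26 and -0.12 in log2 and did not meet the criteria, nor did either with the total gene signal or miR-16-5p with quantile normalization, and 2 others of the group, miR-15b-5p at 0.39 and miR-195a-5p at 0.33, were above 0 and met them, beside the shifted median of 0.37. In the z-scores miR-15b-5p and miR-195a-5p did not meet the criteria, at 0.0289 and -0.0884 for CR minus SD (limma with Benjamini-Hochberg adjustment, adjusted p = 0.797 and 0.154). For CR minus Met they were at -0.0387 and -0.137 (limma with Benjamini-Hochberg adjustment, adjusted p = 0.688 and 0.0316). There miR-195a-5p missed only the limit on the Z ratio, at -0.884. With the total gene signal miR-195a-5p was negative, at -0.64 against SD and -0.78 against Met, and miR-15b-5p positive, at 0.47 and 0.41.

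**Figure D5:**
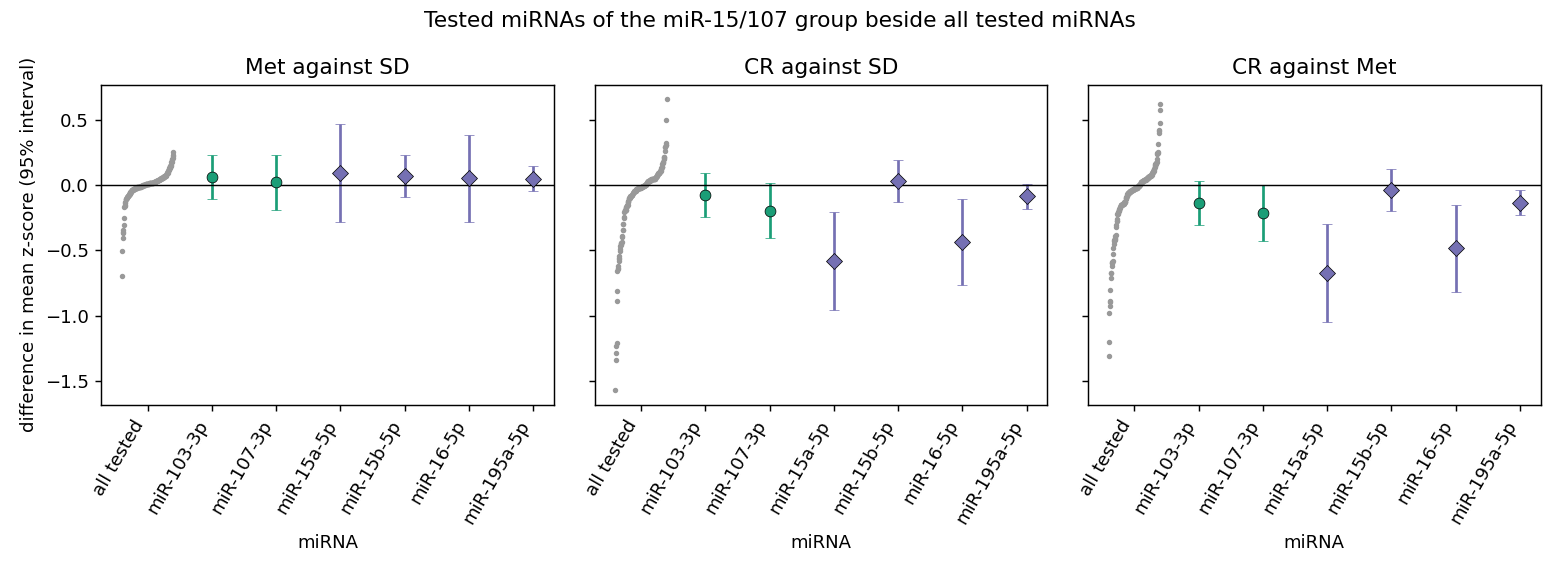
Difference in mean z-score with its 95% interval for the 6 tested miRNAs of the miR-15 and miR-107 group, with all 178 tested miRNAs as gray points at the left of each panel. In the comparisons with CR, miR-15a-5p and miR-16-5p lie lowest and miR-103-3p and miR-107-3p nearer to 0; the differences of both members turn positive with the 75th percentile of detected probes, quantile normalization and the total gene signal.

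The members were also set beside a list of 24 names of other miRNAs known in insulin action, glucose or lipid metabolism. An alias counted as a name, and 22 of the names were on the array and 21 tested. Between Met and SD, 0 of the 21 met the criteria and 17 were higher in Met (100 of all 178), as were both members, with a median difference of 0.0879 beside 0.00838 over all tested. Between CR and SD, 1 rose and 3 fell (5 and 26 of all 178), with a median of -0.0594 beside -0.0161, and between CR and Met, 0 rose and 6 fell (8 and 29 of all 178), with a median of -0.154 beside -0.0292. With the 75th percentile of detected probes the counts were 5 higher and 2 lower for CR against SD (110 and 10 of all 178) and 4 higher and 3 lower for CR against Met (101 and 15 of all 178). With the total gene signal they were 0 higher and 2 lower (5 and 19 of all 178), and 0 higher and 1 lower (8 and 14 of all 178). On that signal an undetected miRNA carries a placeholder of 0.1 before scaling. Not all of the 21 were detected on every array, miR-802-5p for one on 13, so these lower counts can rest on placeholder values. Those that fell in both included miR-29b-3p and miR-29c-3p, which are known to act on insulin signaling and on collagen, at -0.634 and -0.546 for CR minus SD (limma with Benjamini-Hochberg adjustment, adjusted p = 0.0154 and 0.0365), compared with -0.197 for miR-107-3p. Besides these, let-7f-5p fell against SD, at -0.568, and let-7b-5p rose, at 0.307 (limma with Benjamini-Hochberg adjustment, adjusted p = 0.0598 and 0.0438), both named after their values were seen. Without CR mice 2 and 3, 1 of the 21 was higher and 1 lower between CR and SD, let-7b-5p at 0.323 and miR-29b-3p at -0.319 (limma with Benjamini-Hochberg adjustment, adjusted p = 0.0981 and 0.0346; 4 and 18 of all 178), while miR-29c-3p and let-7f-5p did not meet the criteria. Between CR and Met 0 were higher and 3 lower without these mice, miR-29b-3p, miR-29c-3p and miR-34a-5p (3 and 15 of all 178). For miR-34a-5p, which is known to act on Sirt1, CR minus Met with all mice was -0.264 (limma with Benjamini-Hochberg adjustment, adjusted p = 0.0142, Z ratio -1.70). Without CR mice 2 and 3 it was -0.233 (limma with Benjamini-Hochberg adjustment, adjusted p = 0.0998, Z ratio -2.47). The Met minus SD value of miR-122-5p was 0.252 (limma, Benjamini-Hochberg adjusted p = 0.669) and did not meet the criteria.

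Markers of liver cell types were examined because the samples were whole tissue, in which fewer cells of a type and less of the miRNA per cell cannot be told apart. Of 4 hepatocyte markers 4 were tested, and between CR and SD 2 fell, miR-192-5p by -0.887 and miR-194-5p by -0.508 (limma with Benjamini-Hochberg adjustment, adjusted p = 0.0257 and 0.0440), which also fell between CR and Met (26 and 29 of all 178 fell). With the 75th percentile of detected probes 1 of 4 was lower in CR than in SD and 2 than in Met, and with the total gene signal 1 in each (of all 178, 10 and 15, and 19 and 14). On the total gene signal an undetected miRNA carries a placeholder of 0.1 before scaling, and miR-802-5p of this list was detected on 13 arrays. The count on that signal can thus rest on placeholder values and is not read as a change. Without CR mice 2 and 3, 1 of 4 was lower in CR than in SD and 2 than in Met (18 and 15 of all 178). The most abundant marker, miR-122-5p, had a positive CR minus SD difference, 0.217, and did not meet the criteria (limma with Benjamini-Hochberg adjustment, adjusted p = 0.155, Z ratio 1.31). The summed total gene signal of the hepatocyte list, led by miR-122-5p, was 18811, 18948, 29657, 20708 and 28571 in SD mice, 26027, 15169, 10508, 18134 and 27687 in CR mice, and 26211, 24635, 26468, 26148 and 29853 in Met mice. On the same unscaled signal both members were lowest in CR mice 2 and 3, and within SD highest in mice 3 and 5. Of 6 leukocyte and Kupffer cell markers 4 were tested and 0 met the criteria in any comparison of z-scores, while with the 75th percentile of detected probes 2 were higher in CR than in SD and 1 higher than in Met (110 and 101 of all 178), and with the total gene signal 2 and 1 were lower (19 and 14 of all 178). Of these markers miR-142-3p was detected on 13 arrays and miR-223-3p on 14, with the placeholder of 0.1 in CR mouse 3. The lower counts can thus rest on placeholder values and are not read as a change. In z-scores miR-142-3p was at -0.162 for CR minus SD and -0.189 for CR minus Met (limma with Benjamini-Hochberg adjustment, adjusted p = 0.0159 and 0.0142). It missed only the limit on the Z ratio, at -0.975 and -1.22, as did miR-223-3p against SD, at -1.15. The other tested markers, miR-155-5p and miR-146a-5p, missed the limit on p. The sum of the leukocyte and Kupffer cell list, in which miR-223-3p was the most abundant on average, ran from 130.8 to 246.1 in SD, from 28.4 to 212.8 in CR and from 136.4 to 347.0 in Met. Of the erythrocyte list 2 of 4 names were on the array and 1 was tested, miR-451a, which led a sum of 264.7 to 726.4 in SD, 33.9 to 788.0 in CR and 290.7 to 621.1 in Met, and did not meet the criteria. The endothelial miRNAs, led by miR-126-3p, summed to 620.2 to 886.0 in SD, 215.6 to 839.3 in CR and 664.9 to 877.2 in Met, and 1 of 2, miR-126-3p, fell between CR and Met in z-scores (29 of all 178 fell; difference -0.423; limma with Benjamini-Hochberg adjustment, adjusted p = 0.0852). With the 75th percentile of detected probes 0 of 2 met the criteria, and with the total gene signal 1 of 2 was lower in CR than in SD and in Met (19 and 14 of all 178). Of the 2, miR-126-5p was detected on 13 arrays. In CR mice 2 and 3 the sums were 217.8 and 215.6, of which miR-126-3p made up 217.7 and 215.5. This count can thus rest on placeholder values and is not read as a change. Without CR mice 2 and 3 0 of 2 met the criteria in z-scores. Of 5 stellate and smooth muscle names 4 were on the array and tested, 0 met the criteria in z-scores or with the total gene signal, 3 were higher in CR than in SD and in Met with the 75th percentile of detected probes (110 and 101 of all 178), and their sum, led by miR-199a-3p, was 140.1 to 197.9 in SD, 28.3 to 248.8 in CR and 146.8 to 214.3 in Met. CR mouse 2 or 3 gave the lowest CR sum in each of these lists. The striated muscle miRNAs miR-1a-3p, miR-133a-3p and miR-206-3p were each detected on 1 array, that of CR mouse 5, where their sum was 801.4, and they were not tested. In this mouse the members were within the range of the other CR mice, and without it the CR minus SD Z ratio was -0.511 for miR-103-3p and -1.15 for miR-107-3p. The part of these markers in the values of miR-103-3p and miR-107-3p was not tested.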

How the data were processed

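Liver RNA of each of 15 mice, carrying Cy3, was read on its own 1-color Agilent miRNA array. The authors deposited scanner output from Agilent Feature Extraction 11.5.1.1, with each spot's intensity on a linear scale and not normalized between arrays. Flags for detection, outliers, background and saturation, which are other values of 0 or 1, come from the same deposited output. The authors also deposited a table of scores, 15744 lines of which 1109 hold no value; these were z-scores that the values computed here matched to within 0.0005. Outlier spots were left out, and spots were averaged per probe and probes per miRNA. The arrays' annotation refers to mouse build mm9, so RefSeq names and mature sequences (GRCm38.p6) were matched by name.

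All 15 arrays entered 1 fit with limma 3.58.1 in R 4.3.3 (lmFit and eBayes, variances following the mean), with Benjamini-Hochberg adjustment over 178 miRNAs. The limits on p, adjusted p and Z ratio follow the study's methods, with limma in place of the pairwise z-test, which was an alternative. The log2 ratio and unscaled signal were compared by the difference of group means in a two-sided exact permutation test, which takes all 252 splits of 10 mice. Alternatives tried were other scalings and summaries of the signal, other filters and tests, blocks for slide or mouse number, single slides, and leaving out mice. Normexp used an offset of 50, and values of the total gene signal were floored at 0.01 after scaling. Steps were tested on simulated data. The other steps ran in Python 3.11.15 with pandas 2.3.3, numpy 2.4.6 and scipy 1.17.1, and the figures in matplotlib 3.10.9.

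The labels describe 5 separate mice per group, so p-values measure spread between separate mice. Mice were numbered within groups and not paired. The members and lists were chosen with earlier results of these data known. Named miRNAs are the members, the miR-15 and miR-107 group by sequence, the 3 tested miRNAs with the highest Pearson r to each member, up to 4 of each list with the lowest p in a comparison, and miR-122-5p; exceptions are marked where they are named.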

Additional observations from a re-analysis of the deposited data

How the results depend on the processing

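Of 301 values of the members and their ratio under alternatives, 270 kept direction and side of the limits, 0 grew weaker, 11 passed a limit and 20 reversed; where no cause is given, the cause was not tested. As Z ratios, with the 75th percentile of detected probes miR-103-3p was 1.32 for CR against SD and 0.881 for CR against Met, and miR-107-3p 0.557 and 0.328. Quantile normalization gave 1.04 and 0.496, and 0.874 and 0.543. The total gene signal, scaled by the spread over the 178 tested miRNAs, gave 0.355 and 0.354, and 0.119 and 0.211. Z-scores over detected miRNAs reversed only miR-103-3p for CR against SD, to 0.165. With the 75th percentile of all probes miR-107-3p passed the limits at -1.69 against SD and -1.83 against Met, and with centering alone, chosen after seeing the data, at -1.51 and -1.64. Met against SD reversed for miR-107-3p to -0.216, -0.236 and -0.176 with the 75th percentile of all probes, the total gene signal and centering.

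The log2 ratio of CR over SD passed its limit with the median spot signal of the brightest probe (0.16) and with probe pair 2 (0.23), the latter chosen after seeing the data. Leaving out each mouse in turn, Z ratios of miR-103-3p ran from 0.595 to 1.36 for Met against SD, -0.612 to -0.140 for CR against SD and -1.07 to -0.625 for CR against Met, and those of miR-107-3p from -0.393 to 0.956, -1.45 to -0.850 and -1.56 to -1.06. In the same order the log2 ratio ran from 0.031 to 0.085, 0.13 to 0.18 and 0.067 to 0.12. The unscaled log2 signal, left out mouse by mouse after seeing the data, ran from -0.32 to -0.17 for miR-103-3p and -0.43 to -0.25 for miR-107-3p for CR against Met, from -0.21 to -0.064 and -0.37 to -0.20 for CR against SD, from 0.063 to 0.16 for miR-103-3p for Met against SD, and from -0.0099 to 0.12 for miR-107-3p for Met against SD.

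Counts that met the criteria were 2, 31 and 37. For Met against SD they were 0 with the 75th percentile of detected probes, z-scores over detected miRNAs, the total gene signal, the slide block and slide 1 alone, 1 with quantile normalization and with no filter, 13 with the pairwise z-test and 4 in a fit of 2 groups, and ran from 1 to 12 when mice were left out. For CR against SD they were 120 with the 75th percentile of detected probes (110 higher) and 17 with the slide block, and ran from 26 to 36. For CR against Met they were 116 (101 higher), 22 with the total gene signal (8 higher), 12 on slide 2 alone and 18 without CR mice 2 and 3, and ran from 29 to 42. The share called higher moved with scaling: 25 of 42 and 22 of 48 with quantile normalization, 17 of 38 and 18 of 40 with z-scores over detected miRNAs, and 0 of 32 and 0 of 31 with the 75th percentile of all probes.

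A replicate block, taking equal mouse numbers as pairs, changed no call of a member and gave counts of 2, 32 and 37. The 15 pairs of equal number had a median r of -0.115, with 4 over 0.1, so the numbers do not pair samples. Signal over background limits the dimmer miRNAs: negative controls had a median signal of 106 to 118, against a mean of 268 to 416 for the members, and 139 of 696 miRNAs were detected on all arrays.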
